A study of Homo sapiens with 43 samples.

Results

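The Brn2 sites shared by LK2 and NCI-H520 are 649 genomic regions at which Brn2 chromatin immunoprecipitation gave a peak in both lines. They were chosen by the positions of the deposited Brn2 peaks, as the peaks of the LK2 list on chromosomes 1 to 22 and X that overlapped a peak of the NCI-H520 list by at least 1 bp. They made up 649 of 4819 LK2 Brn2 peaks (13.5%) and were matched by 691 of 1298 NCI-H520 Brn2 peaks (53.2%). The remaining 4170 LK2 peaks are called LK2-only sites and the remaining 607 NCI-H520 peaks NCI-H520-only sites.

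Brn2, the product of POU3F2, is a transcription factor of the POU family that is best known for directing neural progenitors and neurons, where it binds octamer-like DNA often together with a Sox protein. Sox2 is a partner of POU factors in stem and neural cells and a lineage factor of squamous epithelium that is often amplified in squamous lung cancer. Acetylation of histone H3 at lysine 27 (H3K27ac) marks active promoters and enhancers. Promoters of widely used genes carry it in almost any cell type, whereas enhancers tend to carry it in few.

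The series profiled established human lung squamous cell carcinoma lines by ChIP-seq, and the labels record no treatment. LK2 and NCI-H520 were profiled for Brn2 (1 library each), Sox2 (1 library each) and H3K27ac (2 libraries each). HCC95, KNS62 and HCC2814 were profiled for Sox2 and H3K27ac, with 1 library per target. Calu-1, EBC-1, HARA, HCC2279, HCC2450, LC-1/SQSF, NCI-H2887 and SQ-1 were profiled for H3K27ac, with 1 library each. The derivatives LK2_DNp63 (H3K27ac, Sox2 and p63) and LK2_GFP (H3K27ac and Sox2) complete the set, and the labels do not say how they were made. Of 43 labelled samples, 27 had a peak list, and the 16 input samples were not analysed here. Whether the 11 lines without Brn2 ChIP express or bind Brn2 was not measured in these files.

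The lists differed in length. The 15 H3K27ac lists of the 13 unmodified lines held between 16470 peaks, in LK2 replicate 2, and 43480 peaks, in NCI-H2887. The 5 Sox2 lists of these lines held 7511 to 14048 peaks. No read counts were given, so depth is unknown, and a library with fewer called peaks can show fewer overlaps at every set of sites.

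Shared sites ranked high in both Brn2 lists. The median deposited peak score was 560 at shared sites and 73.1 at LK2-only sites in the LK2 list, and 120 at shared peaks and 56.9 at NCI-H520-only peaks in the NCI-H520 list. As a percentile of its own list the median shared site stood at 93.1 in LK2, against 43.9 for LK2-only sites, and at 72.1 in NCI-H520, against 28.6 for NCI-H520-only sites. These ranks come from the lists that chose the sites and are a description without a test.

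The overlap was almost complete at the head of each list. Of the 100 highest-scoring LK2 peaks 99 were shared, of the first 500 there were 437, and of the first 1003 (ties included) there were 536. In NCI-H520 the 200 highest-scoring peaks were all shared, as were 463 of the first 500. Across the 649 pairs the scores of both lists had a Spearman rho of 0.72, given as a description across sites that these lists chose. Shared sites were also wider, with a median of 749 bp against 319 bp at LK2-only sites, and score and width had a rho of 0.905 across the shared sites. The midpoints of paired peaks lay a median of 88.5 bp apart, and 343 pairs lay within 100 bp.

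**Figure D1:**
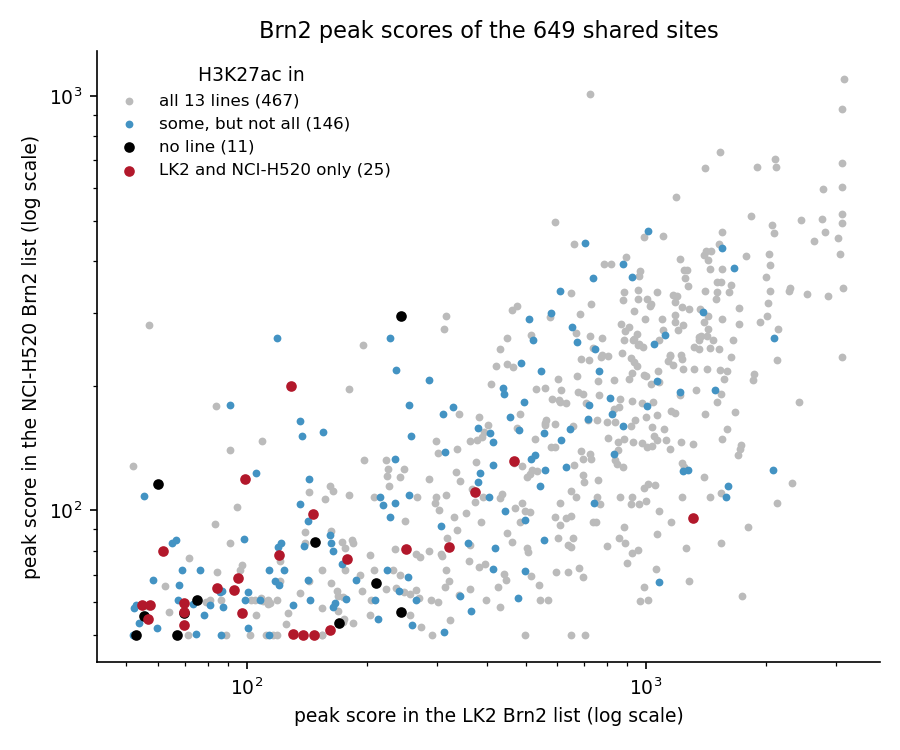
Deposited Brn2 peak score of each of the 649 shared sites in the LK2 list (x axis) and in the NCI-H520 list (y axis), both on log scales, coloured by the lines in which the site overlapped an H3K27ac peak. Sites acetylated in all 13 lines (grey, 467 sites) fill the upper right, and the 25 sites acetylated in LK2 and NCI-H520 only (red) lie mostly at lower scores.

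Few of the shared sites owed their place to a small overlap. The smallest overlaps were 4 bp at chr9:88555233-88555753, 8 bp at chr4:15683520-15683805 and 13 bp at chr3:9834940-9835248. The nearest LK2 peaks outside the rule missed an NCI-H520 peak by 8 bp at chr1:234508896-234509260, 10 bp at chr18:47017010-47017360 and 19 bp at chr3:186501554-186501829. Only 3 shared sites overlapped by less than 50 bp, while 302 LK2-only sites lay within 1000 bp of an NCI-H520 Brn2 peak. At 41 shared sites the LK2 peak covered more than 1 NCI-H520 peak.

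In each line examined, including the 11 lines without Brn2 ChIP, most shared sites overlapped an H3K27ac peak by at least 1 bp. In LK2, 91.1% of shared sites overlapped an H3K27ac peak in replicate 1 and 75.5% in replicate 2. In NCI-H520 the shares were 91.7% in replicate 1 and 96.9% in replicate 2. In the 11 other lines the lowest share was 78.4%, in SQ-1, the median 88.9% and the highest 90.6%, in HARA. LK2 replicate 2, the shortest H3K27ac list, and SQ-1 were lowest, and the ranges of the groups overlapped.

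Averaged per line, the share of shared sites with H3K27ac was 88.8% ± 7.79 in LK2 and NCI-H520 (SD, n = 2 lines) and 87.6% ± 3.35 in the other lines (SD, n = 11). The difference of 1.16 percentage points did not exceed the spread between lines (two-sided exact permutation test over lines, p = 0.679, adjusted p = 0.679 over 6 exact tests). It changed sign without NCI-H520 (-4.35), without LK2 replicate 1 (-2.73) and without NCI-H520 replicate 2 (-0.151). The labels do not say that libraries came from separate cultures, so all p-values here measure only the spread between these samples.

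Sites found in 1 list only overlapped H3K27ac at lower shares. LK2-only sites overlapped H3K27ac in 38.1% of cases in LK2, 42% in NCI-H520 and a median of 26.3% (21.6% to 32%) in the other 11 lines. NCI-H520-only sites did so in 13.7% of cases in LK2, 30.6% in NCI-H520 and a median of 11.4% (7.41% to 13.5%) in the other lines. Averaged per line, both sets lay above the range of the 11 lines in LK2 and in NCI-H520. For NCI-H520-only sites in LK2 this was narrow, with 14% in replicate 1 and 13.3% in replicate 2. Shared sites lay above the range of the 11 lines (78.4% to 90.6%) in NCI-H520, at 94.3%. In LK2 they lay inside it at 83.3%, with replicate 1 above (91.1%) and replicate 2 below (75.5%). The differences between lines at LK2-only and NCI-H520-only sites were not tested.

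Within each of the 11 lines without Brn2 ChIP, shared sites were acetylated more often than LK2-only sites, by 56.8 to 64.9 percentage points. The mean difference was 61.1 points and had the same direction in 11 of 11 lines (two-sided exact sign-permutation test, p = 0.000977, the smallest this test can give, adjusted p = 0.00293). Against NCI-H520-only sites the mean difference was 76.7 points, from 71 in SQ-1 to 79.4 in HARA (the same exact test, p = 0.000977, adjusted p = 0.00293). All lines share the same 2 Brn2 lists, so these tests speak of lines and not of other Brn2 experiments.

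**Figure D2:**
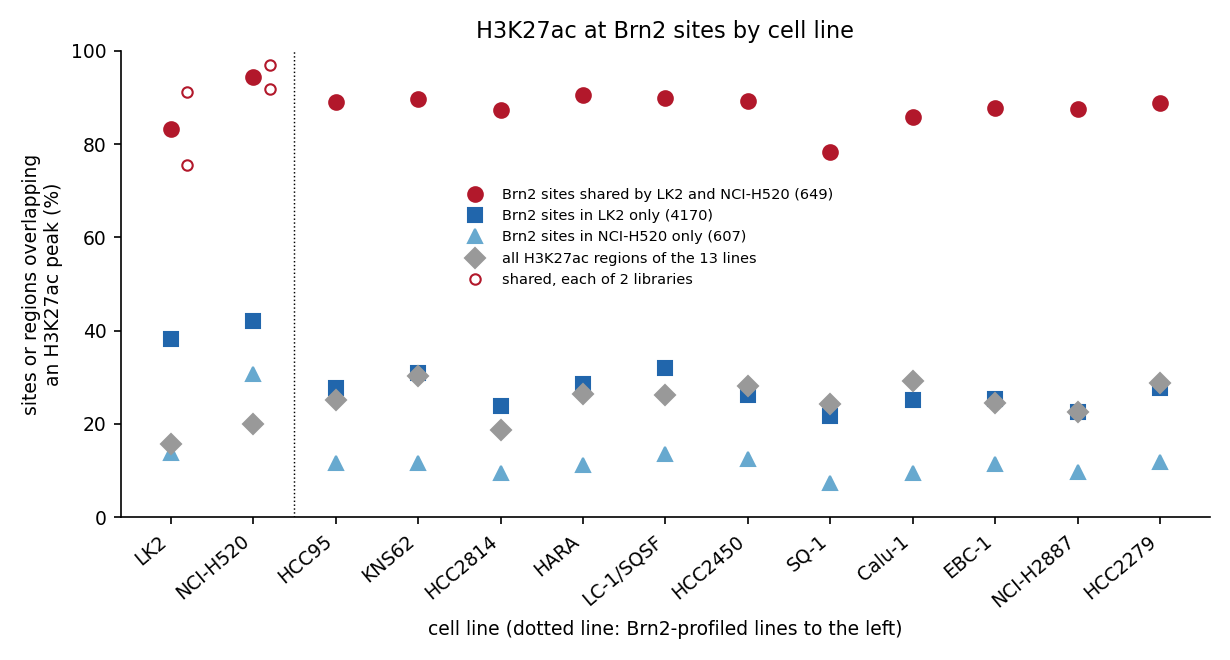
Percent of sites overlapping an H3K27ac peak (y axis) in each of the 13 unmodified lines (x axis). Filled symbols are the value per line (2 libraries averaged in LK2 and NCI-H520) and open circles the single libraries. Shared sites lie between 78.4% and 94.3% in every line, above LK2-only sites, NCI-H520-only sites and all merged H3K27ac regions.

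Rank and width moved with this difference. Restricted to the highest 20% of LK2 scores it was 58.7 points, and restricted to widths above 400 and up to 900 bp it was 60.6 points (exact sign-permutation test, p = 0.000977 and adjusted p = 0.00293 for both). Among the highest 20% of LK2 Brn2 scores, shared sites (n = 531, median width 905 bp) were acetylated in a mean of 93.2% over the 11 lines and LK2-only sites (n = 434, median width 584 bp) in 34.5%. Among peaks wider than 400 and up to 600 bp the shares were 82.2% at 130 shared sites and 25.5% at 839 LK2-only sites, and among peaks wider than 600 and up to 900 bp they were 92.3% at 132 shared and 30.4% at 248 LK2-only sites. In the lowest 20% of scores they were 46.1% at 15 shared sites and 23.5% at 948 LK2-only sites. In the next 20% upwards they were 33.3% at 15 shared sites and 24.4% at 970 LK2-only sites. In class 3 from the lowest they were 64.4% at 23 shared sites and 25.6% at 914 LK2-only sites. In class 4 they were 72.7% at 65 shared sites and 29.1% at 904 LK2-only sites. The gap was thus widest in the highest class and narrowest in the lowest classes, where shared sites were few. Score and width were not matched together.

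Because the lines differ in how much H3K27ac was called, the share at shared sites was also set against that of all merged H3K27ac regions in the same line, as a ratio. All 114149 merged regions were acetylated in 17.8% ± 3.1 of cases in LK2 and NCI-H520 (SD, n = 2) and in 25.9% ± 3.38 in the other lines (SD, n = 11). The ratio was 5.34 in LK2 and 4.72 in NCI-H520, against a median of 3.42 in the other lines, with the lowest at 2.93 in Calu-1 and the highest at 4.7 in HCC2814. The group means were 5.03 ± 0.438 (SD, n = 2) and 3.44 ± 0.503 (SD, n = 11), and the groups did not overlap, though NCI-H520 and HCC2814 were almost equal (difference 1.58, two-sided exact permutation test, p = 0.0128, the smallest possible, adjusted p = 0.0256). With an equal number of top peaks from every list the difference was 0.358 and no longer passed (exact test, adjusted p = 0.138). It did not pass either without LK2 replicate 2 (1.2) or NCI-H520 replicate 1 (1.31, both with adjusted p = 0.0513 by the exact permutation test), nor without LK2 (1.22) or NCI-H520 (1.52), where 0.0833 is the smallest exact p possible. The mean share at shared sites was close, 88.8% in LK2 and NCI-H520 and 87.6% in the other lines. The ratio therefore differed mainly through its divisor, the share of all regions called in a line. It does not show more acetylation at shared sites in LK2 and NCI-H520. Why a smaller share of regions was called in these lines was not tested.

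Counting lines per site separated the shared sites from the others. Of the 649 shared sites, 467 (72%, Wilson 95% interval 68.4% to 75.3%) overlapped H3K27ac in all 13 lines, against 508 of 4170 LK2-only sites (12.2%) and 24 of 607 NCI-H520-only sites (3.95%). No line was acetylated at 11 shared sites (1.69%), 1344 LK2-only sites (32.2%) and 366 NCI-H520-only sites (60.3%). These intervals cover counting error only.

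Between these extremes, 171 shared sites were acetylated in 1 to 12 lines, in many patterns of which the larger ones are given here. There were 66 acetylated in 12 lines, and at 42 of these SQ-1 was the line without a peak. There were 25 (3.85%, interval 2.62% to 5.62%) acetylated in LK2 and NCI-H520 and in none of the 11 other lines, compared with 478 LK2-only sites (11.5%) and 33 NCI-H520-only sites (5.44%). A further 7 shared sites were acetylated in NCI-H520 alone and 1 in LK2 alone. If a peak in all 4 LK2 and NCI-H520 libraries was required, 391 sites were acetylated in all 13 lines and 17 in LK2 and NCI-H520 only.

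**Figure D3:**
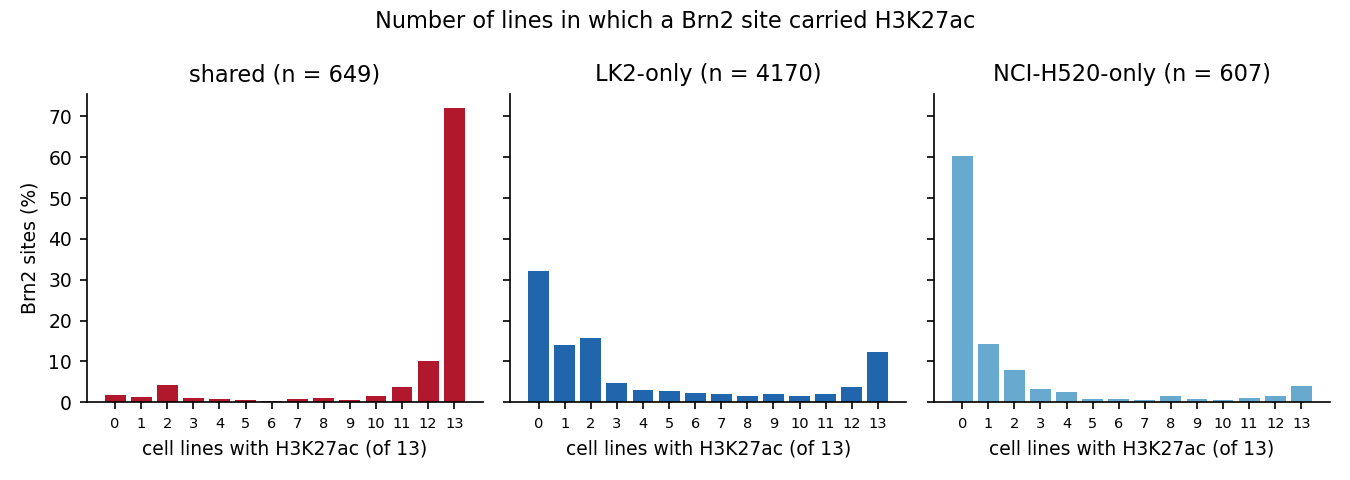
Percent of Brn2 sites (y axis) by the number of unmodified lines in which the site overlapped an H3K27ac peak (x axis, 0 to 13), for shared, LK2-only and NCI-H520-only sites. The bar at 13 lines holds 72% of the shared sites, while the bar at 0 lines is the tallest for the other sets.

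Seen from the acetylated genome, shared sites took a small part of the regions found in every line. Of the merged H3K27ac regions, 7576 held a peak of all 13 lines, and 481 of these (6.35%) contained a shared Brn2 site. Those regions held 496 of the 649 shared sites (76.4%), 874 LK2-only sites (21%) and 52 NCI-H520-only sites (8.57%). Of the 2097 regions acetylated in LK2 and NCI-H520 only, 19 (0.906%) contained a shared site.

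The share of shared sites on a chromosome was set beside that of LK2-only sites, and 2 chromosomes are named here, chosen after their values were seen. Chromosome 19 held 39 shared sites (6.01%), against 1.51% of LK2-only sites and 5.69% of regions acetylated in all 13 lines. Chromosome 8 held 21 shared sites (3.24%), against 8.78% of LK2-only sites and 3.29% of those regions.

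At part of the shared sites the midpoint lay beside, rather than under, the H3K27ac peak that the site overlapped. In LK2 replicate 1 the midpoint lay inside an H3K27ac peak at 71.2% of shared sites, in LK2 replicate 2 at 61%, in NCI-H520 at 85.7% and 91.5%, and in the other lines between 63%, in SQ-1, and 87.2%, in LC-1/SQSF. The shared sites with a midpoint in a gap of the list, with H3K27ac within 1000 bp on both sides, ranged from 0.462% in HCC95 to 11.1% in NCI-H2887 over the 15 libraries, with a median of 2.31%. At LK2-only sites the same share ranged from 0.408% to 11% with a median of 1.25%, and it was lower than at shared sites in 11 of 15 libraries. Both are shares of all sites of a set, and far fewer LK2-only than shared sites overlapped H3K27ac at all. They therefore do not show whether acetylated sites lay in gaps more often when shared. NCI-H2887, with the narrowest H3K27ac peaks (median width 530 bp), gave the highest value at shared sites, and peak width moved with the share in a gap. With the midpoint required to lie inside the peak, 47.1% of shared sites were acetylated in all 13 lines.

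The strongest shared sites were all acetylated in every line. The highest in both lists was chr20:34329279-34331543, with a score of 3143 in LK2 and 1103 in NCI-H520. It carried a Sox2 peak in NCI-H520 and HCC95 and none in LK2. It was followed in mean rank by chr17:37615561-37619029, with Sox2 in HCC95 and HCC2814, and by chr15:78728939-78732450, with Sox2 in NCI-H520 and HCC95.

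The next sites by mean rank were chr17:4842980-4844728, chr12:123236912-123239324, chr2:55844569-55846202, chr17:37606205-37609005, chr17:74552715-74555108, chr9:6680462-6682349 and chr1:111991094-111993792. All 10 were acetylated in 13 of 13 lines, and LK2 Sox2 was found at 1 of them, chr17:4842980-4844728. That site also had Sox2 in NCI-H520, HCC95 and HCC2814. The sites at chr17:37606205-37609005 and chr17:37615561-37619029 are neighbours on chromosome 17. Coordinates are those of hg19, and the position of these sites relative to genes is not given, since no annotation of that build was used here.

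Shared sites rarely lay beside one another. Joining sites less than 50 kb apart gave 607 runs, of which 568 held a single site and 37 held 2. The run of 3 sites spanned chr1:149813749-149858337, and each site was acetylated in all 13 lines. The run of 4 sites spanned 71.3 kb at chrX:151867091-151938364. Its sites were acetylated in 3 or 4 lines each, with HARA and NCI-H520 at all 4, NCI-H2887 at 3, LK2 replicate 1 at 2 and HCC2450 at 1 of them, and they had no Sox2 peak in any line.

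Sox2 was found at a minority of shared sites. Sox2 of LK2 overlapped 57 of 649 shared sites (8.78%, interval 6.84% to 11.2%), and Sox2 of NCI-H520 141 (21.7%). The count was 102 for HCC95 (15.7%), 31 for KNS62 (4.78%) and 35 for HCC2814 (5.39%). NCI-H520 was highest and KNS62 lowest, LK2 lay below HCC95, and the groups overlapped. The mean was 15.3% ± 9.15 in LK2 and NCI-H520 (SD, n = 2) and 8.63% ± 6.15 in HCC95, KNS62 and HCC2814 (SD, n = 3). The difference of 6.63 points did not pass (two-sided exact permutation test, p = 0.5, where 0.1 is the smallest possible). It was 3.67 points with equal numbers of Brn2 peaks and 10.2 with Sox2 of LK2_GFP in place of LK2.

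Shared sites carried Sox2 less often than LK2-only sites in 4 of the 5 lines, and most clearly in LK2. In LK2, Sox2 overlapped 8.78% of shared sites and 44.7% of LK2-only sites, a difference of -36 points. Shared sites were also lower in NCI-H520 (21.7%, against 28.2% of LK2-only sites), KNS62 (4.78%, against 7.94%) and HCC2814 (5.39%, against 8.23%), and higher in HCC95 (15.7%, against 11.3%). The mean of shared minus LK2-only sites over the 5 lines was -8.81 points (two-sided exact sign-permutation test, p = 0.25, where 0.0625 is the smallest possible). It was -2.02 points without LK2, so LK2 set most of its size, and -15.7 with equal numbers of Brn2 peaks. HCC95 turned lower at shared sites with the site midpoint required inside the Sox2 peak (9.24%, against 10.3% of LK2-only sites) and with equal numbers of Sox2 peaks (6.93%, against 8.08%), where the exact test reached its smallest p of 0.0625.

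In LK2 the share with Sox2 was lower at shared than at LK2-only sites in each 20% class of Brn2 scores. It was furthest below in the highest class, and the lower classes held few shared sites. In the highest 20% of scores it was 5.65% at shared and 60.4% at LK2-only sites, and among peaks wider than 600 and up to 900 bp it was 6.82% at shared and 62.5% at LK2-only sites. In the lowest 20% it was 20% at 15 shared sites and 30.5% at LK2-only sites. Sox2 of NCI-H520 went otherwise over the same ranks. It was lower at shared sites in the highest 20% of scores (17.7%, against 42.6% of LK2-only sites) and higher in the other 4 classes, with 46.7% against 18.2% in the lowest and 36.9% against 34.8% in the class next to the highest. The nearest LK2 Sox2 peak lay a median of 182 kb from a shared site, against 3.77 kb from an LK2-only site. In NCI-H520 the distances were 48.9 kb from shared sites and 28.9 kb from LK2-only sites.

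The shared sites acetylated in every line were set beside all regions acetylated in every line. The 467 shared sites acetylated in all 13 lines overlapped LK2 Sox2 in 2.14% of cases (interval 1.17% to 3.9%), NCI-H520 Sox2 in 14.8% (11.8% to 18.3%), HCC95 Sox2 in 16.1% (13% to 19.7%), KNS62 Sox2 in 3.43% (2.12% to 5.49%) and HCC2814 Sox2 in 4.71% (3.13% to 7.03%). When the 7576 regions acetylated in all 13 lines were cut to the median shared width of 749 bp around their centres, Sox2 of LK2 overlapped 2.6%, Sox2 of NCI-H520 8.92%, Sox2 of HCC95 8.28%, Sox2 of KNS62 2.94% and Sox2 of HCC2814 4.41%. For the uncut regions the share was 5.36% with LK2 Sox2, 17.2% with NCI-H520 Sox2, 18.5% with HCC95 Sox2, 8.41% with KNS62 Sox2 and 9.86% with HCC2814 Sox2. In NCI-H520, HCC95, KNS62 and HCC2814 the order of sites and regions therefore depended on the length compared. In LK2 the sites were lower at both lengths, though the 2.6% of the cut regions lay inside the interval of the sites. The 467 sites themselves had a median width of 896 bp. These regions include 481 that contain a shared site.

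Where shared sites carried Sox2, it was often that of a single line. No Sox2 peak of any of the 5 lines overlapped 443 shared sites (68.3%), and Sox2 of all 5 lines overlapped 7. Sox2 was present in NCI-H520 alone at 54 shared sites, in HCC95 alone at 38 and in LK2 alone at 4. It was present in both LK2 and NCI-H520 at 48, of which 31 had no Sox2 peak in HCC95, KNS62 or HCC2814.

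The 25 shared sites acetylated in LK2 and NCI-H520 only mostly carried Sox2 in the same lines. Sox2 of LK2 overlapped 20 of them (80%, interval 60.9% to 91.1%) and Sox2 of NCI-H520 24 (96%, interval 80.5% to 99.3%), with 20 in both. Among the 467 sites acetylated in all 13 lines, 7 (1.5%, interval 0.728% to 3.06%) had Sox2 in both. In the lines without Brn2 ChIP, Sox2 overlapped 1 of the 25 in HCC95, 0 in KNS62 and 1 in HCC2814. The 25 were weaker and narrower Brn2 sites, with a median LK2 percentile of 71.8 and width of 419 bp, against 94.5 and 896 bp for the sites acetylated in all 13 lines. The H3K27ac lists defined this class and the Sox2 lists did not, and no test was made of it because it was singled out with results known.

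The 11 shared sites without H3K27ac in any line also held Sox2, in LK2 at 5 and in NCI-H520 at 7. The 5 of these that ranked highest were chr8:141272324-141273202, with Sox2 in NCI-H520, chr11:61382282-61382685, with no Sox2 peak, and chr11:113428607-113429157, chr11:20783630-20784166 and chr2:202933384-202934354, each with Sox2 in both LK2 and NCI-H520 and in none of HCC95, KNS62 and HCC2814.

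**Figure D4:**
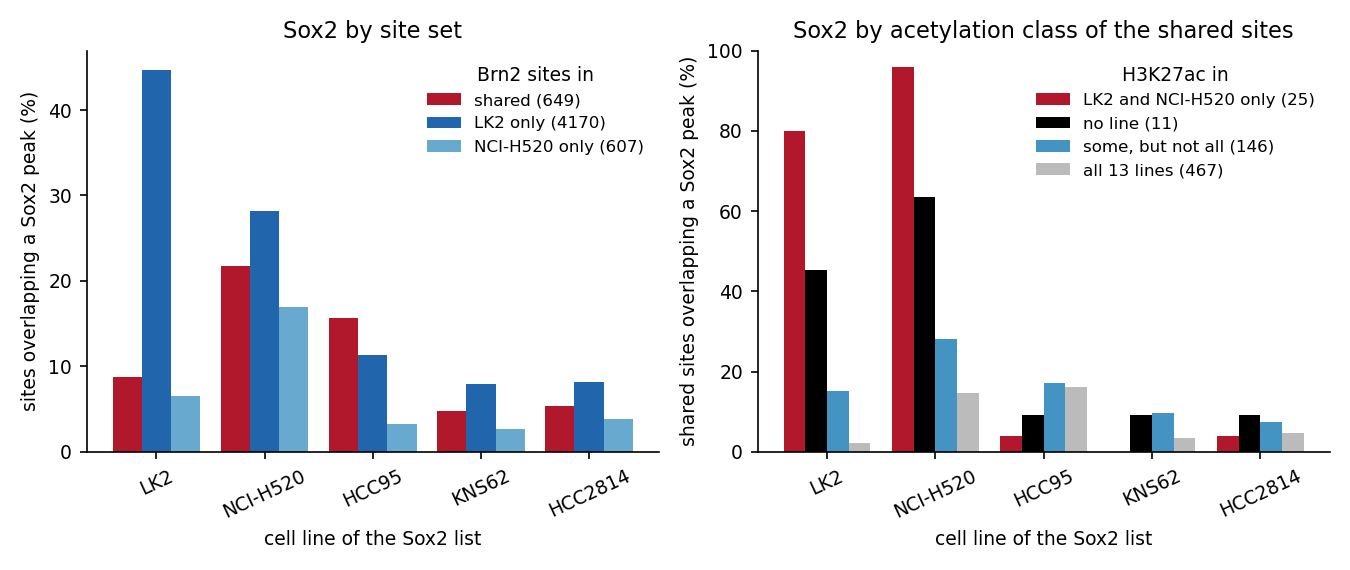
Left, percent of shared, LK2-only and NCI-H520-only Brn2 sites overlapping a Sox2 peak (y axis) of each line (x axis). Right, the same share within the shared sites by acetylation class. LK2 Sox2 overlapped 8.78% of shared and 44.7% of LK2-only sites, and 80% of the 25 shared sites acetylated in LK2 and NCI-H520 only.

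Among shared sites with Sox2 in LK2 and NCI-H520 and in no other line, the leading ones differed in acetylation. The first by rank, chr1:45987372-45987899 and chr2:160568624-160570062, were acetylated in all 13 lines. The others included chr15:46239824-46242039, chr5:115480939-115481995, chr9:73410522-73411221, chr6:99250238-99250869 and chr2:27400572-27400834, each acetylated in all 4 LK2 and NCI-H520 libraries and in no other line. The site chr3:95135-95480 was acetylated in LK2 replicate 2 and both NCI-H520 libraries, chr13:74341296-74341823 in NCI-H520 alone, and chr11:113428607-113429157 in no line.

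The widest site of the class acetylated in LK2 and NCI-H520 only was chr15:46239824-46242039, 2216 bp long and at percentile 97.8 of LK2 and 66.1 of NCI-H520. Further sites of this class with H3K27ac in all 4 libraries were chr3:194442865-194444035, which also had Sox2 in HCC2814, chr2:103625746-103626427, which also had Sox2 in HCC95, chr10:80311031-80311414 and chr1:144974338-144975315 with Sox2 in LK2 and NCI-H520, and chr1:15710941-15711274 with Sox2 in NCI-H520.

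To compare acetylation by amount, the length covered by H3K27ac peaks was taken in 10 kb tiles of the whole genome. Each library was brought to the same summed length, and a length scaled in this way can be longer than its tile. LK2 and NCI-H520 were then compared with the 11 other lines by limma on log2(scaled length + 500 bp). Of 29361 tiles tested, 2448 (8.34%) passed an adjusted p of 0.05, 1472 higher in LK2 and NCI-H520 (5.01%) and 976 lower (3.32%). Among 599 tested tiles with a shared Brn2 site 33 were higher (5.51%), near the share over all tiles, and 2 were lower (0.334%), below it. Many of the 33 entered the test only through their length in LK2 and NCI-H520, so these counts are a description. Among 1521 tested tiles with an LK2-only and no shared site 372 were higher (24.5%). The same length filter applied to these tiles, so this count is a description too.

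The median log2 difference was -0.38 over all tiles, 0.32 over tiles with a shared site and 0.60 over tiles with an LK2-only site. Scaling moved these medians, to -0.67, -0.18 and -0.01 without it, and relative to all tiles the tiles with a shared site stood 0.70 higher with scaling and 0.49 higher without. Of the called tiles, 60.1% were higher with scaling and 40.2% without. The higher tiles with a shared site numbered 19 without LK2 and 16 without NCI-H520.

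The tiles with a shared site that were called higher were mostly those of the small class. Of its 25 sites, 22 lay in tested tiles and 21 in tiles called higher, a count that the definition of the class goes far to fix. Of the 467 sites acetylated in all 13 lines, 466 were tested and 4 lay in tiles called higher. The tile at chr15:78730001-78740000, which holds the site at place 3 by mean rank, was among these. Its log2 difference was 1.05 with an SE of 0.31 (adjusted p = 0.0491 by limma). The scaled length was 3.02 kb in LK2 and 5.31 kb in NCI-H520, against 0.931 to 3.21 kb in the other lines. LK2 thus lay inside the range of the other lines, below HCC2814.

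The 10 tiles with a shared site and the highest fitted differences had little or no H3K27ac in the other lines. They reached the length needed for the test only through LK2 and NCI-H520, so their lengths are given as a description with no p. The tile chr16:50490001-50500000 holds the Brn2 site chr16:50493197-50493615, with Sox2 in LK2 and NCI-H520. That site stood at percentile 76.6 of the LK2 list but 4.82 of the NCI-H520 list, where its score of 50.14 was near the lowest of 50. The scaled covered length of the tile was 19.5 kb in LK2 and 10.7 kb in NCI-H520, and 0 in all 11 other lines. Unscaled, H3K27ac peaks covered 9.81 kb of the tile in LK2 and 10 kb in NCI-H520. The tile was thus covered almost from end to end in these lines alone, and its fitted log2 difference, 4.90 with 500 bp added, was 7.18 with 100 bp and 3.04 with 2000 bp.

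The tile chr8:121780001-121790000 had 18.1 kb in LK2 and 10.6 kb in NCI-H520, and 0 in the 11 others. Its Brn2 site stood at percentile 80.6 of the LK2 list and 12.7 of the NCI-H520 list. The tile chr7:79810001-79820000 had 16.3 kb in LK2 and 9.63 kb in NCI-H520, and 0 in the others. Its Brn2 site, chr7:79817595-79818077, had no Sox2 peak in any line, unlike the sites of the other 9 tiles.

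At chr3:194440001-194450000 the length was 18.1 kb in LK2 and 10.7 kb in NCI-H520, against at most 1.3 kb, in HCC2814, among the 11 others. At chr2:103620001-103630000 it was 16.2 kb in LK2 and 10.5 kb in NCI-H520, against at most 0.919 kb, in HCC95. HCC2814 at the chr3 site and HCC95 at the chr2 site were also the other lines with a Sox2 peak there.

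The remaining tiles of the 10 were chr11:20330001-20340000, chr21:33310001-33320000, chr6:22760001-22770000, chr10:116010001-116020000 and chr3:90001-100000. The site in the chr10 tile stood at percentile 78.5 of the LK2 list and 4.82 of the NCI-H520 list. The site in the chr6 tile had Sox2 in LK2 and not in NCI-H520, and the other 4 had it in both. Beside these, the tile chr6:99250001-99260000 had 4.6 kb in LK2 and 2.48 kb in NCI-H520, against at most 0.932 kb, in Calu-1.

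**Figure D5:**
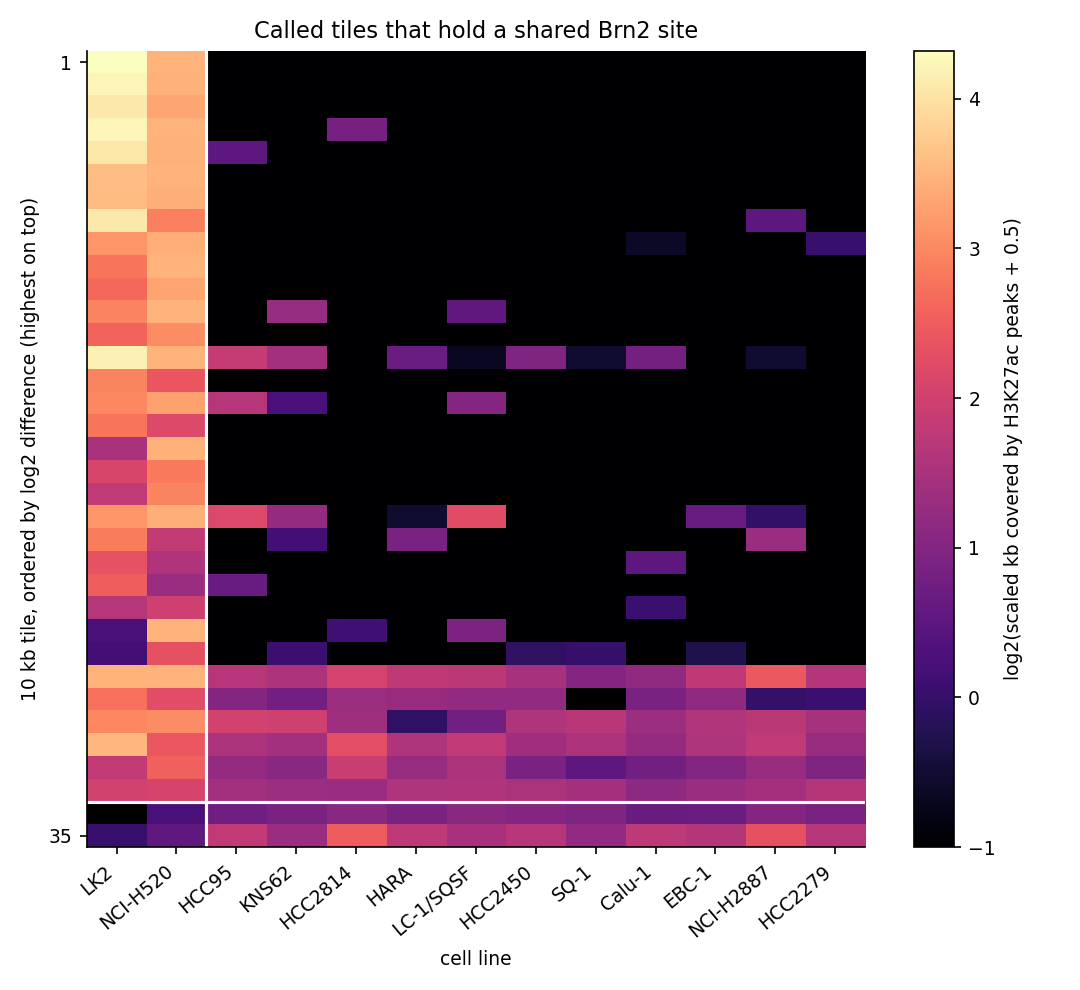
Scaled length covered by H3K27ac peaks, as log2(kb + 0.5), in the 35 called 10 kb tiles that hold a shared Brn2 site (rows, from the highest to the lowest log2 difference) and the 13 lines (columns, LK2 and NCI-H520 left of the white line). The first 33 tiles are higher in LK2 and NCI-H520, the top ones with little or no covered length in the other lines, and the last 2 are lower.

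The tile chr19:18630001-18640000 was lower, with 0.535 kb in LK2 and 0.963 kb in NCI-H520, against 1.77 to 5.18 kb (median 2.67) in the other lines. Its Brn2 site stood at percentile 69.7 of the LK2 list and 4.82 of the NCI-H520 list. The log2 difference of the tile was -1.44 with an SE of 0.30 (limma adjusted p = 0.00562). Without LK2 the difference was -1.21 (limma adjusted p = 0.166, with NCI-H520 as the lone line of its group, assumed to vary like the others), and without NCI-H520 replicate 1 it was -1.07 (limma adjusted p = 0.0731). The tile chr6:36850001-36860000 was lower, with 0 in LK2 and 0.693 kb in NCI-H520, against 1.1 to 1.65 kb (median 1.36) in the other lines. Its fitted log2 difference was -1.28 with an SE of 0.30. That call ended with the same number of top peaks (-1.37, limma adjusted p = 0.438) and without LK2 (-0.67, limma adjusted p = 0.214), and the tile reached the length needed for the test only through the other lines. Its Brn2 site, chr6:36852529-36853806, stood at percentile 96.8 of the LK2 list and was acetylated in 12 lines, LK2 being the exception in both libraries.

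LK2_DNp63 and LK2_GFP carried H3K27ac at most shared sites. H3K27ac overlapped 594 of 649 shared sites in LK2_DNp63 (91.5%, interval 89.1% to 93.4%) and 603 in LK2_GFP (92.9%, interval 90.7% to 94.6%). Sox2 overlapped 34 in LK2_DNp63 (5.24%, interval 3.77% to 7.23%) and 103 in LK2_GFP (15.9%, interval 13.3% to 18.9%). Each value rests on 1 library, and the Sox2 lists held 4217 peaks in LK2_DNp63 and 12034 in LK2_GFP, so the lower share moved with a shorter list. At the 25 sites acetylated in LK2 and NCI-H520 only, H3K27ac was present at 15 in LK2_DNp63 and 20 in LK2_GFP, and Sox2 at 11 in LK2_DNp63 and 23 in LK2_GFP.

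The p63 list of LK2_DNp63 overlapped 7 shared sites (1.08%, interval 0.523% to 2.21%), 81 LK2-only sites (1.94%) and 1 NCI-H520-only site (0.165%). Of all merged H3K27ac regions, 2.13% overlapped it. p63, the master regulator of squamous epithelium, was thus found at few Brn2 sites of any kind, and the list came from a derivative in which Brn2 was not profiled.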

How the data were processed

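Each list holds peak positions on hg19 and a score, deposited by the authors; the lowest score in any list was 50, no header gives the scale, and scores were compared within 1 list only, as ranks. Peak names begin with MACS. Reads were aligned with Bowtie2 to hg19, per the submitters' processing notes; the caller's version and threshold, and how inputs were used, were not given in the sources used here. Chromatin for Brn2 was also cross-linked with disuccinimidyl glutarate and digested with micrococcal nuclease, per the labels' protocols. Of 652792 peaks, 2092 outside chromosomes 1 to 22 and X were left out.

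Overlap meant 1 bp. A line with 2 H3K27ac libraries counted as acetylated at a site with a peak in either, and its shares were averaged. Merged regions are the union of H3K27ac peaks of the 13 lines. Exact permutation tests over lines were two-sided, with Benjamini-Hochberg adjustment over 6 tests. Tiles needed a mean scaled length of 500 bp and were tested with limma 3.58.1 (R 4.3.3) with a mean-variance trend. Wilson 95% intervals cover counting error only. Sites were named by fixed rules: highest mean Brn2 percentile, among all sites and within classes of Sox2 or H3K27ac, the called tiles with the largest differences, and the runs with most sites (37 tied at 2 sites were not named). The tiles and sites at chr6:99250001-99260000 and chr15:78730001-78740000 were singled out as tiles after their values were seen. Overlaps and tests were checked on simulated data. The sites, classes and tests were chosen with earlier results of these data known. Gene annotation and sequence were not used here. The score and width comparisons, the requirement of both libraries and the midpoint gaps were added after seeing the data.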

Additional observations from a re-analysis of the deposited data

Results flagged for a closer look

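In the group of 8 lines with H3K27ac ChIP only, SQ-1 stood apart with 78.4% of shared Brn2 sites acetylated, and with 71 percentage points between shared and NCI-H520-only sites. SQ-1 had the lowest share at LK2-only (21.6%) and NCI-H520-only sites (7.41%) too, while its list held 40325 peaks. Within the same group, single lines stood apart at tiles with a shared site: NCI-H2887 with 0.915 kb of scaled H3K27ac at chr6:22760001-22770000, HCC2279 with 0.529 kb at chr10:116010001-116020000 and NCI-H2887 with 4.53 kb at chr19:18630001-18640000. Chance sets a sample apart by this measure in about 1 in 20 groups, which does not hold for the tiles on chr6 and chr10, where nearly all other lines were at 0 and a single small peak sets a line apart.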

How the results depend on the processing

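With the Brn2 midpoint inside the other peak, the difference in acetylated shared sites was -3.47 points and the difference in ratio 1.17 (exact test, adjusted p = 0.0513), and 79.5% of shared sites were acetylated in LK2_DNp63 and 76% in LK2_GFP. With equal numbers of Brn2 peaks the values were -1.17 points and 1.53 (exact test, adjusted p = 0.0513), median percentiles were 78.2 in LK2 and 75.9 in NCI-H520, and 2.15% of sites were acetylated in LK2 and NCI-H520 only, with Sox2 in both at 91.7% (92% with Sox2 of LK2_GFP). With equal numbers of H3K27ac peaks the ratio difference was 0.358 (exact test, adjusted p = 0.138). Sites acetylated in all 13 lines made up 47.1% by midpoint, 43.9% with equal H3K27ac peaks, 77.4% with equal Brn2 peaks, 65% as NCI-H520 peaks and 60.2% with both libraries required, where LK2 and NCI-H520 alone held 2.62%. Called tiles numbered 3928 (3152 higher) without the length filter, 4082 (2714 higher) for tiles of 5 kb, 796 (395 higher, 401 lower) for 50 kb and 1317 (923 higher, 394 lower) with equal peaks; 787 were higher without scaling and 595 lower with a pseudocount of 2000 bp, and lower tiles with a shared site were 4 without scaling and 4 at 50 kb.

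Leaving out 1 library or line gave -4.35 to 6.67 points for acetylated shared sites, 1.2 to 2.08 for the ratio (adjusted p from the exact tests 0.0256 to 0.167), 60.7 to 61.5 and 76.4 to 77.3 points against LK2-only and NCI-H520-only sites, and 0.154 to 13.1 and -12.1 to -2.02 points for Sox2. It gave 1113 to 3396 called tiles, 651 to 1915 higher and 462 to 1481 lower, 16 to 40 higher and 0 to 8 lower with a shared site, and 61.5% (without LK2 replicate 1) to 78.4% (without SQ-1) of sites acetylated in all lines left, 2.77% to 4.93% in LK2 and NCI-H520 only and 75% to 83.3% of these with Sox2 in both. The lowest counts of called tiles, and of higher tiles, came without NCI-H520. Of 286 alternative values for the 12 named tiles, 282 kept direction and call, and the 4 others were all of tiles called lower. The higher tiles, and the lower tile on chr6, reached the length needed for the test only through the side where they are high. Their calls were thus largely fixed, and the count of kept values is a description that does not measure how firm the calls are. The cause of these changes was not tested.

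No paired analysis was possible because the line is the unit of comparison between LK2 and NCI-H520 and the 11 other lines. Replicate numbers were given only to H3K27ac libraries of LK2 and of NCI-H520, which stand on the same side of it. The 11 other lines have 1 library each. This limit concerns pairing libraries by replicate number across these groups. The exact sign-permutation tests, by contrast, compared sets of sites within each line. Without read counts, depth is unknown, and a site without a peak is not shown to lack the mark. The Brn2 lists are single libraries, so no spread of the choice of sites is known.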
